A study of Mus musculus with 80 samples.

Results

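The hormone receptors and lineage transcription factors of the luminal mammary epithelium were followed across 80 mouse mammary tumours. The list held 10 genes: the oestrogen receptor Esr1, the progesterone receptor Pgr, the prolactin receptor Prlr, the transcription factors Gata3, Foxa1, Elf5, Stat5a and Stat5b, and the hormone-responsive genes Areg and Greb1. They were found by gene symbol, whatever their values, among 20380 probe sets that carry 1 symbol. A probe set is the group of short array probes that together measure 1 transcript. Of the 10 genes, 8 were represented, by 11 probe sets; Prlr and Areg were not analysed here.

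All tumours arose in FVB mice that carry the MMTV-Myc transgene, in which the mouse mammary tumour virus promoter drives the Myc oncogene in mammary epithelium. Hosts of 4 genotypes gave 20 tumours each. One genotype was wild type for E2F genes (wild type below). The E2F1 null and the E2F2 null hosts lacked the gene named, and E2F3 heterozygous hosts kept an intact copy of E2F3. E2F proteins are transcription factors of the cell cycle, and the series asked how Myc tumours develop when an E2F is lost. Tumours were frozen at the endpoint, and the labels give neither the age of the animals, nor their reproductive state, nor how the E2F alleles were made. Each label starts with a number whose meaning is not given. The 80 tumours carry 53 such numbers (16 wild type, 16 E2F1 null, 11 E2F2 null, 10 E2F3 heterozygous), and 46 tumours share theirs with another tumour of the same genotype. Tumours with 1 number may come from 1 animal, so the number was used as a block in genotype tests and tumours were averaged by number before genes were related to each other.

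In the normal gland, oestrogen and progesterone act on hormone-sensing luminal cells, which pass signals such as amphiregulin, the product of Areg, to their neighbours. Gata3 and Foxa1 are transcription factors of luminal cells, and Foxa1 opens chromatin for the oestrogen receptor. Prolactin acts through its receptor and the kinase Jak2 on Stat5a and Stat5b, which with the ETS factor Elf5 drive the alveolar cells that make milk.

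The keratin genes Krt8 and Krt18 were high in every tumour, with Krt8 between 4636 and 15450 intensity units and Krt18 between 4962 and 18959. Other keratins varied more, with Krt19 from 45.4 to 11531, Krt7 from 75.8 to 6834, Krt14 from 19.7 to 8276 and Krt5 from 29.4 to 3342. Other cells were present in varying amounts: the fibroblast collagen gene Col1a2 ran from 843 to 19319 and the muscle actin gene Acta1 from 3.55 to 4749. The targeted genes gave an incomplete check of the labels. One E2f1 probe set (1431875_a_at) fell by 0.59 on the log2 scale in E2F1 null tumours (limma adjusted p = 0.0469), with medians of 80.8 against 128 in wild type and overlapping groups. The other E2f1 probe set (1417878_at) and the E2f3 probe set (1427462_at) had differences of -0.18 and -0.19 in their own genotypes and were not called. Where these probes lie relative to the deleted parts was not known. E2F1 null replicate 6 stood apart, with a mean correlation of 0.819 to the other arrays against a median of 0.910.

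The Stat5a and Stat5b promoters are shown because these genes are adjacent on chromosome 11, where they follow each other in the RefSeq gene order, and because their levels moved together across tumours. RefSeq windows (build GRCm38.p6) reach 250 bases upstream of each start. The best-scoring ungapped match between a Stat5a and a Stat5b window spans 55 bases, of which 49 are identical (89.1%). Capitals mark the identical bases, at chr11:100860418-100860472 (plus strand, Stat5a) and chr11:100822573-100822627 (minus strand, Stat5b):
Stat5a: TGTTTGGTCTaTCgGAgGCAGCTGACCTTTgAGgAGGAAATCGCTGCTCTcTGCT
Stat5b: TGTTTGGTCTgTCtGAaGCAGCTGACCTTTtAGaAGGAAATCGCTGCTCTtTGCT
The stretch ends 12 bases upstream of the Stat5a start and 3 bases upstream of the Stat5b start. In the other 3 pairs of Stat5a and Stat5b windows the best match was 17 to 33 bases long.

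The Foxa1 window is shown because it is the only window of a measured luminal factor that held the forkhead motif TGTTTAC on either strand. It covers chr12:57546112-57546361 on the minus strand, with the motif in capitals as its reverse complement, starting 141 bases upstream of the start:
Foxa1: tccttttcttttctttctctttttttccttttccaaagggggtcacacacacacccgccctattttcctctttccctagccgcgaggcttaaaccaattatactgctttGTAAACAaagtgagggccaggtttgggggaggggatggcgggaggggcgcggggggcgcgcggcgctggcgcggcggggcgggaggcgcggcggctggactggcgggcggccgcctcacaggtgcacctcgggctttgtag
The motif was present in 3.17% of 32851 windows of the same length. Both Elf5 windows were without a match to it, and also to the GATA motif AGATAA, the STAT motif TTCNNNGAA, the ETS motif CCGGAA, the E-box CACGTG bound by Myc, and the E2F motifs TTTCCCGC and TTTGGCGC. The ETS letters were found once in the Gata3 window and once in a Stat5b window, against 12% of all windows. Such matches describe letters only.

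The hormone receptors gave no usable signal. A probe set entered the tests when it exceeded 74.6 intensity units, the 40th percentile of all values, on at least 10 arrays. Esr1 (1421244_at) ran from 1.70 to 36.6 with a median of 17.1 and was above this level on 0 of 80 arrays. Pgr (1421444_at) ran from 0.372 to 25.9 with a median of 9.53 and was also above it on 0 of 80. Greb1 (1419593_at), an oestrogen-induced gene, ran from 1.22 to 76.5 with a median of 13.7, and 1 tumour, E2F1 null replicate 6, exceeded the level. The values of these 3 genes overlapped between genotypes, with median intensities per genotype of 15.9 to 18.5 for Esr1, 7.68 to 12.1 for Pgr and 8.99 to 15.5 for Greb1. Low array signal does not show that the RNA is absent. Fitted without the filter, the largest of their 18 genotype differences was Greb1 in E2F2 null minus E2F3 heterozygous tumours, at -0.56 ± 0.29 (SE, limma adjusted p = 0.692).

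Some other genes of the oestrogen and progesterone response were dim as well. Of 24 such genes with a probe set, 15 passed the level filter, against 8769 of 12393 genes in the whole series. The 9 that did not included Tnfsf11, the RANK ligand through which progesterone acts on neighbouring cells (median 13.2), Tff3 (median 8.46), Agr2 (median 5.47) and Tbx3 (median 23.2). Bright members were Ctsd, the lysosomal protease cathepsin D (median 4719), and Igfbp5, an insulin-like growth factor binding protein (median 5168, from 137 to 12438). Tff1, Myb, Igfbp4, Nrip1, Fkbp4, Fkbp5 and Ncoa3 were likewise above the filter level on 80 of 80 arrays. Wnt4, Rara, Id4, Bcl2 and Rasd1 passed the filter but were above the level on only 11 to 30 arrays. None of the 28 probe sets of this list was called in any of the 6 genotype comparisons. Over all probe sets, 0.0071% to 0.227% were called per comparison, so a count of 0 is close to the background.

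**Figure D1:**
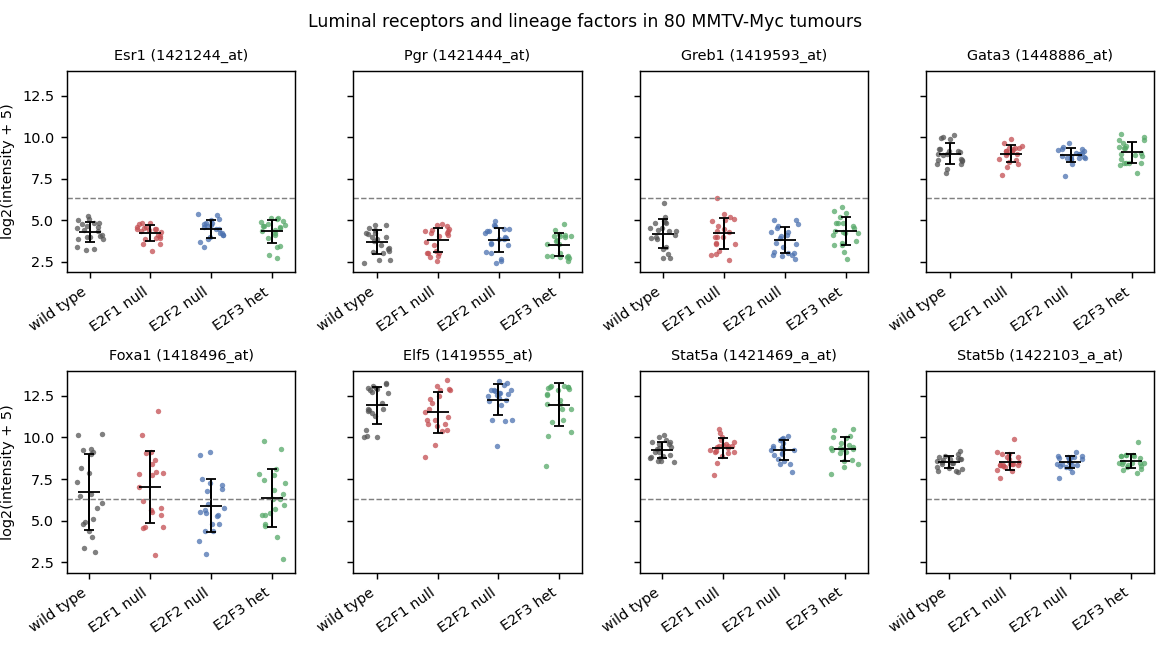
Main probe set of each of the 8 genes in the 4 genotypes; the vertical axis is log2(intensity + 5), each point is 1 tumour (20 per genotype), the bar and whiskers are mean ± SD, and the dashed line is the level filter. Esr1, Pgr and Greb1 lie below the line (1 Greb1 tumour reaches 76.5 units), Foxa1 straddles it from 1.49 to 3086 units, and the other 4 genes lie above it in every tumour.

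Of the 11 probe sets, 8 from 5 genes passed the filter: Gata3, Foxa1, Elf5, Stat5a and Stat5b, the last 3 with a main (brighter) and a second probe set. Foxa1 had the widest spread of these. In wild type tumours Foxa1 (1418496_at) ran from 3.61 to 1156 with a median of 87.0. E2F1 null tumours ran from 2.62 to 3086 with a median of 168, E2F2 null tumours from 3.02 to 551 with a median of 42.8, and E2F3 heterozygous tumours from 1.49 to 867 with a median of 72.4. High and near-background tumours thus occurred in every genotype, and the level filter was passed by 11, 11, 7 and 9 tumours of 20, in the same order. The SD of the log2 values was between 1.60 and 2.29 within a genotype, and the lowest values lie where MAS5 intensities are least precise.

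Elf5 was above the filter level in all tumours by its main probe set (1419555_at). Wild type tumours ran from 1040 to 10010 with a median of 3877. The E2F1 null range was 440 to 11180 with a median of 2715, that of E2F2 null 713 to 10751 with a median of 6211, and that of E2F3 heterozygous 303 to 8843 with a median of 5349. E2F1 null tumours were lowest and E2F2 null tumours highest in the median, with nearly full overlap. The second Elf5 probe set (1419556_at) gave the same order of mean log2 values at lower signal, with 58 of 80 tumours above the filter level and an overall range of 25.6 to 446.

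Gata3, Stat5a and Stat5b varied much less. Gata3 (1448886_at) ran from 202 to 1166 over all tumours, with genotype medians from 480 in E2F2 null to 568 in E2F1 null tumours. The main Stat5a probe set (1421469_a_at) ran from 209 to 1463, with medians from 588 in wild type to 691 in E2F1 null tumours. The main Stat5b probe set (1422103_a_at) ran from 182 to 970, with medians from 332 in E2F1 null to 376 in wild type tumours. For each of these genes the distance between neighbouring genotype means was smaller than the SD within genotypes.

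No genotype difference of any member passed the test. Differences were fitted with limma on log2(intensity + 5) over 14092 probe sets, with Benjamini-Hochberg adjustment and a threshold of 0.05. Of the 8 member probe sets, 0 were called in E2F1 null against wild type, where 0.0923% of all probe sets were called, and 0 in E2F2 null against wild type, with 0.0355% called. The count was also 0 in E2F3 heterozygous against wild type, with 0.0071% called, and 0 in each comparison between the altered genotypes (E2F1 null against E2F2 null 0.227%, E2F1 null against E2F3 heterozygous 0.121%, E2F2 null against E2F3 heterozygous 0.0639%). The F test over the 4 genotypes called 0.22% of probe sets and none of the members, with adjusted p from 0.999 upward. Few genes of any kind were called, so a count of 0 among 8 is close to the background. At an unadjusted p under 0.05, the only member probe set past the threshold was the second of Elf5, in E2F1 null against E2F2 null, where 9.34% of all probe sets were. The shares of all probe sets in the other comparisons were 1.24%, 6.29% and 0.703% against wild type for E2F1, E2F2 and E2F3 in turn, 3.14% for E2F1 null and 7.64% for E2F2 null against E2F3 heterozygous, and 4.09% in the F test.

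The intervals set how large a missed difference could be. Stat5b in E2F1 null minus wild type was 0.00 (95% interval -0.27 to 0.27), and Gata3 was -0.00 (-0.36 to 0.36). Relative to wild type, Elf5 was -0.46 (-1.21 to 0.30) in E2F1 null, 0.28 (-0.50 to 1.06) in E2F2 null and 0.03 (-0.75 to 0.80) in E2F3 heterozygous tumours. Foxa1 was 0.24 (-1.02 to 1.50), -0.88 (-2.18 to 0.41) and -0.44 (-1.74 to 0.86) in the same order. The log2 scale with 5 units added understates changes of dim tumours. For Foxa1, differences of several fold in either direction lie inside the intervals.

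The largest differences lay between E2F1 null and E2F2 null tumours. Foxa1 had a difference (E2F1 null minus E2F2 null) of 1.12 ± 0.65 (SE, limma adjusted p = 0.578). Of its 20 E2F1 null tumours, 4 lay outside the E2F2 null range, above it at 565, 1110 and 3086 units and below it at 2.62. How common such a count is over all probe sets was not computed. Elf5 had a difference of -0.74 ± 0.39 (adjusted p = 0.545) by the main and -0.74 ± 0.34 (adjusted p = 0.520, unadjusted p = 0.0347) by the second probe set. Neither gene was called. Over the alternatives run, the adjusted p stayed between 0.391 and 0.647 for Elf5 and between 0.452 and 0.648 for Foxa1.

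**Figure D2:**
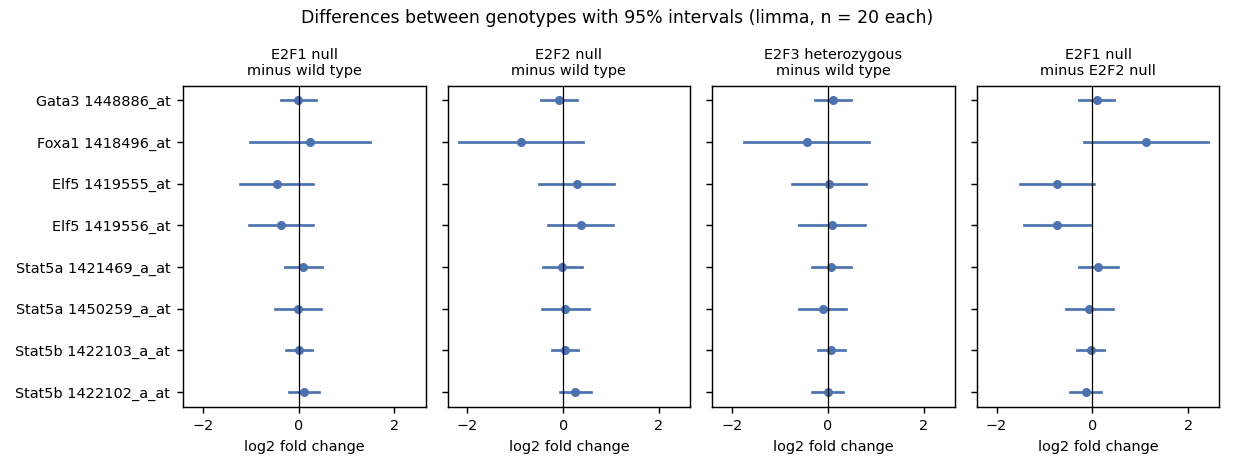
Differences from wild type, and of E2F1 null minus E2F2 null, for the 8 member probe sets that passed the filter; the horizontal axis is the log2 fold change (on log2(intensity + 5)), points are limma estimates from 20 tumours per genotype and lines are 95% intervals. Every interval spans 0 except that of the second Elf5 probe set in E2F1 null minus E2F2 null tumours (-1.42 to -0.05), which was not called after adjustment.

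The genes around the members were likewise uncalled across genotypes. In the list of prolactin and STAT5 signalling and its targets, 0 of 49 probe sets rose and 0 fell in each of the 6 comparisons. The same held for 40 probe sets of other luminal epithelial genes, 28 of the EGF family and 46 of GATA, FOX and lineage cofactors. With 0.0071% to 0.227% of all probe sets called per comparison, these counts are close to the background. The smallest F test p in the prolactin list belonged to Jak2, the receptor-bound kinase, at -0.35 ± 0.13 in E2F2 null minus wild type (SE, adjusted p = 0.780). In the EGF family list it belonged to Etv4, an ETS factor, at 1.61 ± 0.65 in E2F1 null minus E2F2 null (adjusted p = 0.469). Among other luminal genes, 10 of 40 probe sets had an unadjusted p under 0.05 in E2F1 null against E2F2 null, where 9.34% of all probe sets had, with a median difference of -0.27 against 0.01 over all probe sets. Elf3, an epithelial ETS factor, was at -0.39 ± 0.13 there and Cd24a (1416034_at), a surface glycoprotein of luminal cells, at -0.50 ± 0.17 (adjusted p = 0.456 each). The other genes with the smallest F test p of their lists had differences there of -0.23 for Stat6 and 0.12 for the sheddase gene Adam10, 0.43 for Zfp703, 0.56 for Igfbp4, -0.00 for Gata2 and 0.31 for the GATA cofactor gene Zfpm1, with adjusted p from 0.466 (Stat6) upward. The proliferation score, the mean of 15 cell cycle genes, had a median of -0.01 log2 units in E2F1 null and 0.12 in E2F2 null tumours; its part in these differences was not tested.

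Tumours with the same label number differed widely in Elf5. The intraclass correlation is the fitted correlation between tumours of 1 number, and it can be negative. Over the 19 shared numbers it was -0.19 for Elf5 (second probe set -0.12), against a median of 0.16 over all probe sets tested. Within a number, Elf5 spanned between 0.02 and 4.85 log2 units with a median of 1.27. The widest was number 4194, E2F3 heterozygous, where tumour 1 had 303 and tumour 2 had 8843. These are the lowest and the highest Elf5 value of that genotype.

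The same pair of tumours differed in other members and in genes related to Elf5 across the series. Gata3 was 229 in tumour 1 and 655 in tumour 2, and Stat5a was 216 and 606. The milk protein gene Wap was 93.5 and 12836, and Cd24a (1448182_a_at) was 5624 and 14964. In the other direction Dusp6 was 7472 and 394, and Etv4 was 436 and 15.7. Not every gene related to Elf5 followed the series in this pair. Ceacam10 (r = 0.51 with Elf5 over label numbers) was 187 and 54.3, and Nrip1 (r = 0.38) was 816 and 569. Of the epithelial adhesion genes, Epcam was 7511 in tumour 1 and 5456 in tumour 2, whereas Cdh1 was 2624 and 3431. The part of epithelial content in these differences was not tested.

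Foxa1 was more alike within numbers than Elf5, with an intraclass correlation of 0.31, yet it spanned up to 6.16 log2 units. In number 3880, wild type, its 3 tumours had 10.9, 1130 and 48.6. Stat5b had 0.32 and 0.43 by its main and second probe set, and Stat5a 0.15 and 0.54. Gata3 had 0.09.

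**Figure D3:**
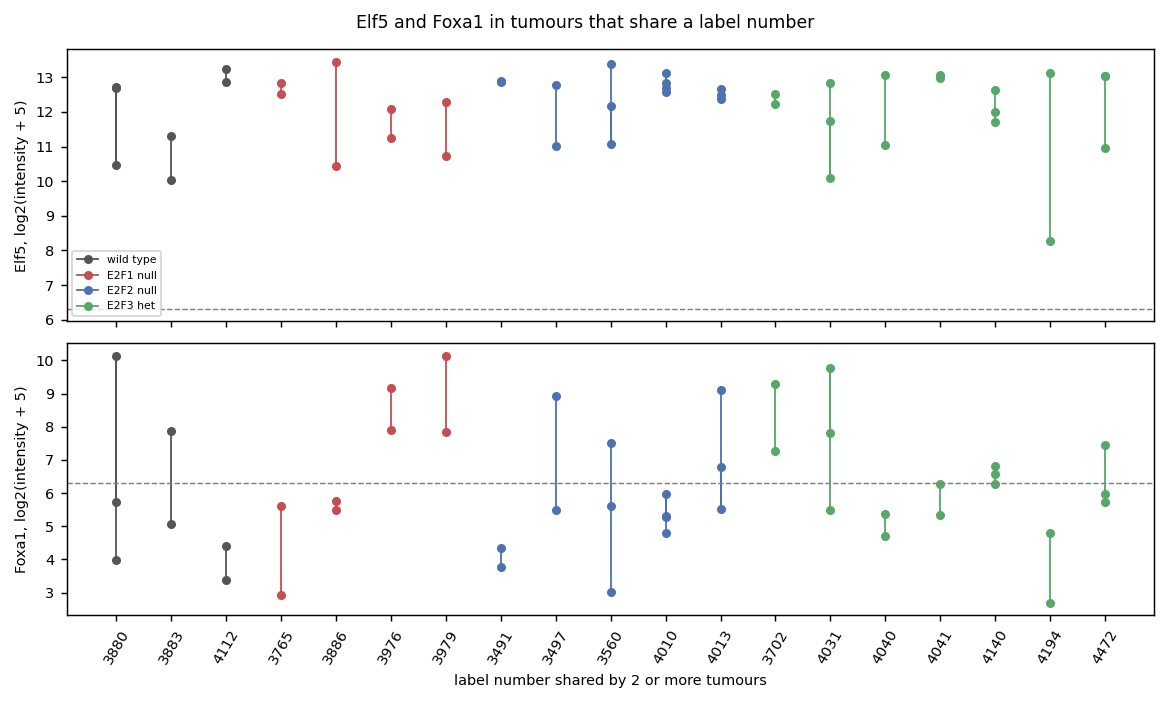
Elf5 (upper) and Foxa1 (lower) in tumours that share a label number; the vertical axes are log2(intensity + 5), each point is 1 tumour, lines join tumours of 1 number, colours give the genotype and the dashed line is the level filter. In number 4194 the Elf5 values are 303 and 8843 units, and in number 3880 Foxa1 takes 10.9, 48.6 and 1130 units.

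Among the members themselves, 3 of 10 pairs of main probe sets were called across the 53 label numbers. A pair was called when limma slopes in both directions had an adjusted p under 0.05 over all probe sets of other genes. Such slopes were common: 2.79% of probe sets were called for Gata3, 16.6% for Foxa1, 34.1% for Elf5, 18.3% for Stat5a and 21.6% for Stat5b. For the second probe sets of Elf5, Stat5a and Stat5b the shares were 38.1%, 39.9% and 33.8%. Permutation p-values below are two-sided, from 100000 resamples, which can give no less than 1e-05.

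Stat5a and Stat5b, which act downstream of the prolactin receptor, rose and fell together. Their r was 0.69 (permutation p = 1e-05) and rho 0.65 (permutation p = 1e-05), with a limma adjusted p of 4.63e-05. Without the 2 numbers farthest from the Stat5a median r was 0.65, and within genotypes it was between 0.57 and 0.76. It was 0.75 within label numbers and 0.64 with the fibroblast score as a covariate. The second Stat5a probe set had r = 0.82 with the main Stat5b probe set and only 0.61 with the main Stat5a probe set. The genes are close copies of each other, so how well the probe sets separate the 2 genes is uncertain.

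Gata3 rose with Stat5a. Their r was 0.52 (permutation p = 4e-05) and rho 0.54 (permutation p = 4e-05), with a limma adjusted p of 0.0143 and r = 0.53 without the 2 farthest numbers. Within genotypes r was lowest in E2F2 null (0.27) and highest in wild type tumours (0.67). The relation was seen with the main Stat5a probe set alone: with the second, r was 0.10 (adjusted p = 0.771). Among tumours that share a number the adjusted p was 0.243 (r = 0.37), and over all alternatives it lay between 0.00413 and 0.243.

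Foxa1 and Elf5 went in opposite directions, weakly. Their r was -0.36 (permutation p = 0.00839) and rho -0.38 (permutation p = 0.00609), with a limma adjusted p of 0.0412. Leaving out the 2 farthest numbers gave -0.31. Within genotypes r was between -0.52 and -0.31 in the other 3, and 0.17 over the 10 numbers of E2F3 heterozygous tumours; the difference was not tested. The call was lost with genotype as a factor (adjusted p = 0.0734), with the 3' to 5' signal ratio of Gapdh, a measure of RNA quality, as a covariate (0.0877) and within label numbers (0.0878). The ratio had r = -0.29 with Elf5 and 0.21 with Foxa1. With the second Elf5 probe set, Foxa1 had r = -0.41 over all numbers (larger limma adjusted p = 0.0198). In E2F3 heterozygous tumours that r was -0.09, so the positive sign there was seen with the main Elf5 probe set alone.

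The other 7 pairs of main probe sets were not called. Elf5 and Stat5a, partners in the alveolar programme, had r = 0.29 (permutation p = 0.0374, limma adjusted p = 0.113). This depended on the probe sets: the second ones of both genes had r = 0.40 and were called (larger limma adjusted p = 0.0104). A main probe set of either gene with the second of the other was not called (r = 0.22 and 0.29). Elf5 and Stat5b had r = 0.20 (permutation p = 0.148), Gata3 and Elf5 0.13 (permutation p = 0.371) and Gata3 and Foxa1 0.14 (permutation p = 0.312). With the 80 tumours as points, 5 pairs were called in place of 3, Elf5 with Stat5a and Gata3 with Stat5b being added. Both Elf5 probe sets measured the same pattern, with r = 0.90 between them.

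**Figure D4:**
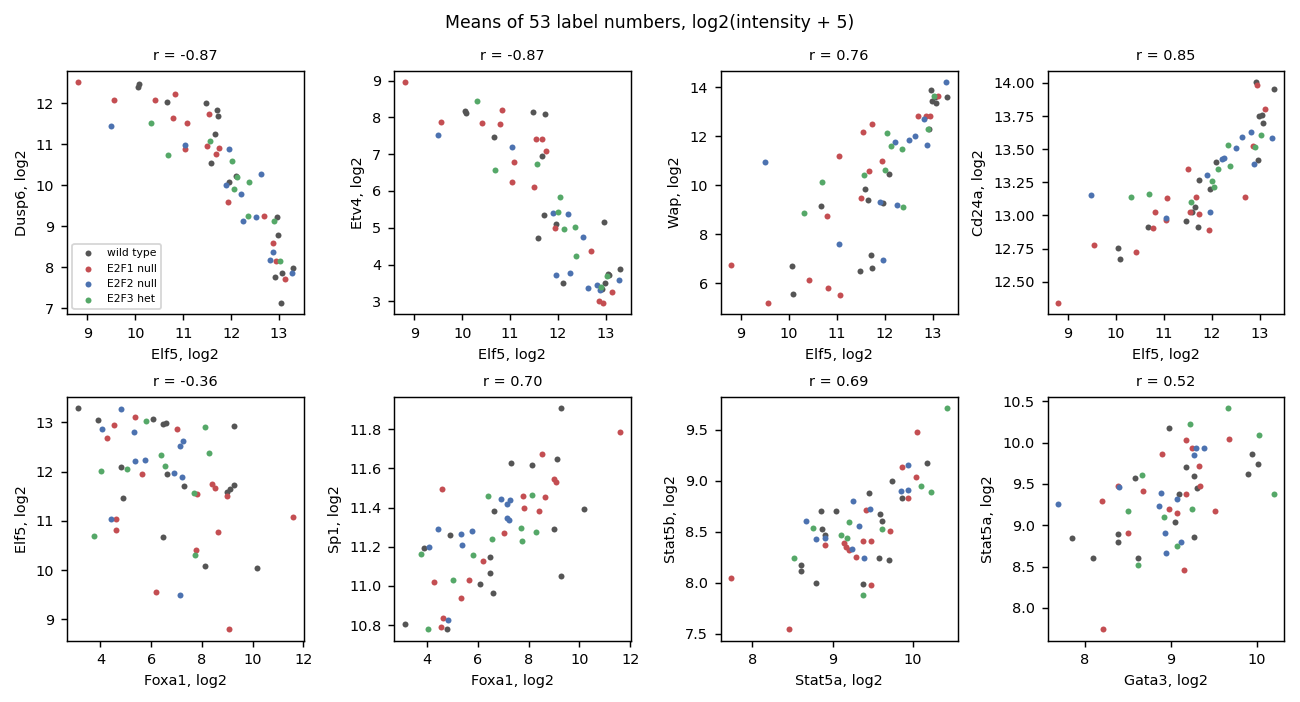
Relations of members to each other and to other genes over 53 label numbers; axes are log2(intensity + 5) of the named genes, each point is the mean of the tumours of 1 number and colours give the genotype. Elf5 falls as Dusp6 and Etv4 rise (r = -0.87 each) and rises with Wap (0.76) and Cd24a (0.85), whereas the Foxa1 and Elf5 points scatter widely (-0.36).

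Elf5 was tied to more of the transcriptome than the other main probe sets. The genes most like it, among 8768 others, were Slc28a3, a nucleoside transporter (r = 0.93), Chpt1, a choline phosphotransferase of phospholipid synthesis (0.90), and Rnf128, a ubiquitin ligase (0.89). Slc28a3 ran from 57.8 to 8248 units over the tumours. The most opposed was Abcb1b, a drug efflux transporter (r = -0.88), which ran from 1.49 to 748. All 4 had a permutation p of 1e-05 and kept an absolute r of at least 0.86 without the 2 farthest numbers.

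The milk and alveolar genes largely rose with Elf5. In the prolactin and STAT5 list, 16 of 26 genes were called with a positive and 3 with a negative slope, and the median r was 0.48 against -0.06 over all genes, of which 36.5% were called. Wap, the whey acidic protein gene, had r = 0.76 (rho 0.82, permutation p = 1e-05 for both). Its values ran from 31.5 to 19178 with a median of 2153. Xdh, xanthine dehydrogenase of the milk fat globule, had r = 0.74 (rho 0.85, permutation p = 1e-05 for both). The casein genes Csn1s1 (0.72), Csn2 (0.57) and Csn3 (0.49) and the lactalbumin gene Lalba (0.59) were among the positive calls. The 3 negative calls, named after their values were seen, were Socs2 (-0.74) and Ptpn6 (-0.42), both inhibitors of cytokine signalling, and the cyclin gene Ccnd1 (-0.74).

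The EGF family and its feedback genes ran the other way. Here 10 of 17 genes were called with a negative slope on Elf5 and 1 with a positive slope, where 36.5% of all genes were called. The median r was -0.55 against -0.06 over all genes. Dusp6, a phosphatase that acts on the kinase ERK and is induced by it, ran from 93.0 to 7472 units and had r = -0.87 with Elf5 (rho -0.93, permutation p = 1e-05 for both). Within genotypes its r was between -0.91 and -0.82, and within label numbers it was -0.92. Etv4, which ERK signalling induces, had r = -0.87 (rho -0.88, permutation p = 1e-05 for both), although it exceeded the filter level in only 31 tumours. Other negative calls were Spry2 (-0.82) and Errfi1 (-0.77), both feedback inhibitors, the ligand genes Tgfa (-0.74) and Hbegf (-0.65), and the receptor genes Erbb2 (-0.59) and Egfr (-0.55). The 1 positive call was the ligand gene Egf (0.49). The mean score of the list had r = -0.89 with Elf5.

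Other luminal genes split, with more of the called genes rising with Elf5 than falling. Of 23 genes, 11 were called with a positive and 4 with a negative slope on Elf5, where 36.5% of all genes were called. The median r was 0.16 against -0.06 over all genes, and the mean score of the list had r = 0.62 with Elf5 (rho 0.60). Cd24a had r = 0.85 (rho 0.87) and Wfdc18, a secreted gene with a whey acidic protein domain, had r = 0.82 (rho 0.83), with permutation p = 1e-05 for each value. Ltf, the milk protein lactoferrin, followed at 0.78, the ETS factor Ehf, the neighbour of Elf5 on chromosome 2, at 0.75, and Krt19 at 0.69. The 4 negative calls were Prom1 (-0.82), Tfap2c (-0.42), Kit (-0.36) and Krt7 (-0.34), named after their values were seen; Prom1 marks hormone-sensing luminal cells and Kit luminal progenitors in the mouse gland.

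In the oestrogen and progesterone list, 2 of 15 genes were called with a positive and 4 with a negative slope on Elf5, a share near the 36.5% of all genes called. Igfbp5 had r = 0.55 (permutation p = 7e-05) with rho 0.57 (permutation p = 3e-05), and Ncoa3, a nuclear receptor coactivator, had r = -0.49 (permutation p = 0.00014) with rho -0.54 (permutation p = 2e-05). Among GATA, FOX and lineage cofactors, 1 of 20 was positive and 6 were negative, again near the 36.5% of all genes. The histone demethylase gene Kdm1a had r = -0.50 (permutation p = 0.00013) and the Notch target Hes1 -0.49 (permutation p = 0.00019). Hes1 was not called within label numbers (adjusted p = 0.112), and its r over the 11 E2F2 null numbers was 0.57 against -0.77 in wild type, a difference that was not tested.

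Scores of other cell types had smaller r with Elf5 than the EGF family (-0.89) and prolactin and STAT5 (0.64) scores. A score is the mean, over the tested genes of a list, of the log2 value minus that gene's mean. Its r with Elf5 was 0.00 for fibroblasts (13 genes), 0.01 for basal and myoepithelial cells (15), -0.23 for endothelium (10), -0.08 for macrophages and leukocytes (10) and 0.28 for adipocytes (6). In a bulk tumour, fewer cells of a type and less RNA per cell cannot be told apart. Single genes of these lists were called in both directions. In the basal list, Lgals7 (-0.59) and Itgb4 (-0.53) were negative and Krt14 (0.44) and Krt5 (0.32) positive. Lpl (0.61) and Pparg (0.55) of the adipocyte list, whose score had a rho of 0.40, and the muscle gene Mb (0.60) were positive. These genes were named after their values were seen, and the part of other cell types was not tested. Of the fat and myoepithelial markers, Fabp4, Lpl and Acta2 were above the filter level on 80 arrays, Krt14 on 74, Krt5 on 63 and Adipoq on 25, while Lep and Oxtr were on 0. The T cell markers Cd3e and Cd8a were above it on 0 arrays.

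**Figure D5:**
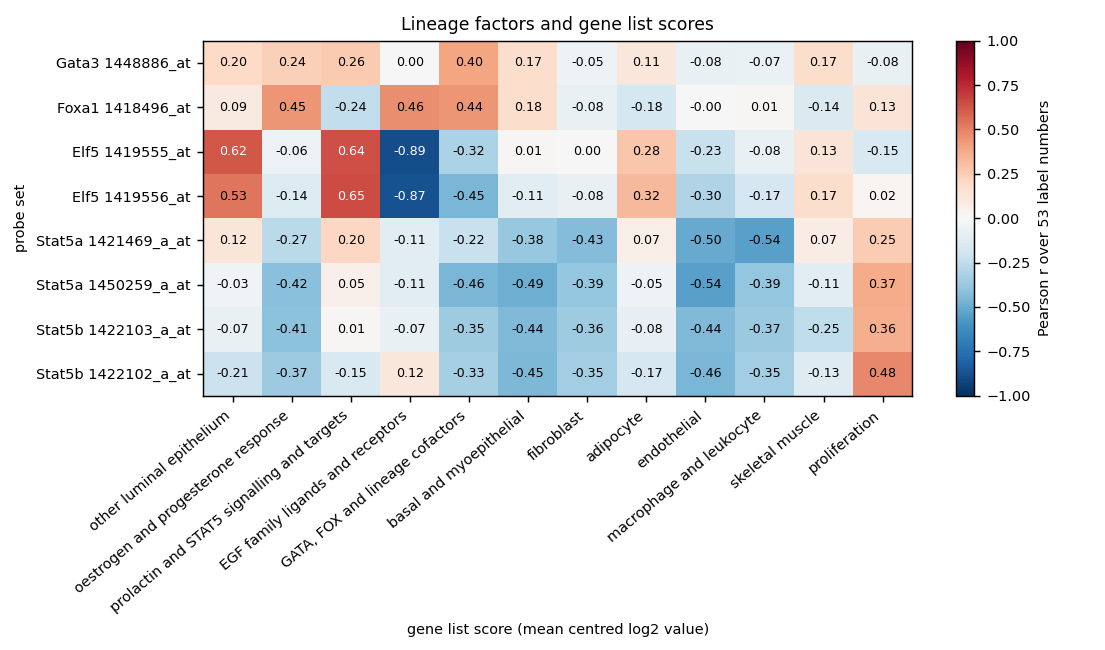
Pearson r over 53 label numbers between the 8 member probe sets that passed the filter (rows) and 12 gene list scores (columns); red is positive, blue negative. Both Elf5 probe sets stand at -0.89 and -0.87 with the EGF family score and at 0.64 and 0.65 with the prolactin and STAT5 score, while the Stat5a and Stat5b rows are negative for fibroblast, endothelial and leukocyte scores.

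Foxa1 went with the EGF family genes that Elf5 opposed. Of 17 genes, 7 were called with a positive and 1 with a negative slope on Foxa1, where 17.8% of all genes were called. Tgfa (0.57), Spry2 (0.55) and Hbegf (0.53) led, and Egf was the negative one (-0.38). Tfap2c, a luminal transcription factor, had r = 0.69 and Ncoa3 0.57. In the oestrogen and progesterone list 5 of 15 genes were positive and none negative. Foxa1 and Elf5 are negatively related in the same tumours, so these calls are not independent of those on Elf5.

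The genes most like Foxa1 lie on chromosome 15, whereas Foxa1 itself lies on chromosome 12. They were Lrrc14 (r = 0.72, rho 0.73), the transcription factor gene Sp1 (0.70, rho 0.70) and Ly6d, a surface protein (0.69, rho 0.71). Ly6d ran from 38.2 to 4829 units. The most opposed was Rab1a, a gene of vesicle transport (r = -0.66, rho -0.65). Permutation p was 1e-05 for these 8 values, and the absolute r without the 2 farthest numbers was 0.63 to 0.69.

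Gata3 had few relations. The most alike genes were Pex6, a peroxisome gene (r = 0.67, permutation p = 1e-05), Isoc1 (0.60, permutation p = 2e-05) and Zfp202, a zinc finger gene (0.60, permutation p = 1e-05), and the most opposed was Ostc, a subunit of oligosaccharyltransferase (-0.56, permutation p = 4e-05). In the pathway lists, 2 of 26 prolactin and STAT5 genes were called, Lalba (r = 0.50, limma adjusted p = 0.0168) and Ceacam10 (0.47, adjusted p = 0.0245), and 1 of 20 lineage cofactors, Sox9 (0.47, adjusted p = 0.0257). Their r without the 2 farthest numbers was 0.39, 0.37 and 0.46. Against 2.02% of all genes called, 0 of 15 oestrogen and progesterone genes, 0 of 17 EGF family genes and 0 of 23 other luminal genes were called. Without E2F1 null replicate 6, 3.65% of all genes were called, with 2 lineage cofactors and 1 EGF family gene among them. Gata3 had r = 0.31 with the Gapdh ratio. With that ratio as a covariate the share of all probe sets called on Gata3 went from 2.79% to 0.298%. In these lists Nrip1 had r = 0.36 (limma adjusted p = 0.101), Bcl2 0.28 (0.240), Adam10 0.42 (0.0569), Hey1 0.40 (0.0652), Grb2 -0.35 (0.133), Epcam 0.31 (0.174) and Cdh1 0.29 (0.221).

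Stat5a fell as stromal and immune genes rose, and most of these calls depended on 1 array. Over all numbers, 11 of 13 fibroblast, 10 of 10 endothelial and 9 of 10 macrophage and leukocyte genes were called with a negative slope on Stat5a, against 20.7% of all genes called in either direction. Score r was -0.43, -0.50 and -0.54. Without E2F1 null replicate 6, the counts were 0, 1 and 3, the median r of the lists was -0.27, -0.28 and -0.39, and 2.33% of all genes were called. That tumour had the lowest Stat5a value of all, 209 units. Its Stat5b was 260, Elf5 2100 and Gata3 293.

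Stat5b was likewise negative with basal and myoepithelial genes, 11 of 15, against 22.9% of all genes; without that array it was 8 of 15, against 16%. Examples were Mylk (-0.48) and Krt14 (-0.44). Proliferation genes rose with Stat5b in 7 of 15 cases, among them Mki67 (0.39) and Birc5 (0.48), and in 2 of 15 without the array. Jak2, which phosphorylates STAT5, had r = -0.49 with Stat5b and Socs3, an inhibitor of cytokine signalling, -0.47. Of 26 genes in the prolactin and STAT5 list, 0 had a positive and 4 a negative call on Stat5b, no larger a share than the 22.9% of all genes. Besides Jak2 and Socs3 these were Ptpn1 (-0.56), a phosphatase, and the repressor gene Bcl6 (-0.40), named after their values were seen. On Stat5a, 4 genes of this list were positive, Lalba (0.44), Cish (0.39), Csn1s2b (0.38) and Cidea (0.38), and 3 negative, Ptpn1, Socs3 and Jak2, against 20.7% of all genes. Without E2F1 null replicate 6 the Stat5a counts were 1 and 0, against 2.33%. Relations of both genes also depended on other settings. With the fibroblast score as a covariate, the share of all probe sets called went from 21.6% to 2.06% on Stat5b. On Stat5a it went from 18.3% to 0.22%. Within label numbers, where 46 tumours enter, the shares were 0.0284% on Stat5b and 5.29% on Stat5a. The second probe sets had an r with the Gapdh ratio of -0.46 (Stat5a) and -0.38 (Stat5b), whose part was not tested.

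The genes most like Stat5a were Slc44a3, a choline transporter-like gene (r = 0.73), Mrpl44, of the mitochondrial ribosome (0.70), and Stat5b (0.69), and the most opposed was the transcription factor gene Ebf2 (-0.63). For Stat5b they were Stat5a, the tetraspanin gene Tspan15 (0.66) and the ubiquitin ligase gene Rnf167 (0.65), with Pon2, a paraoxonase, most opposed (-0.68). Permutation p for r was 2e-05 for Tspan15 and 1e-05 for the others. Rnf167 lies on chromosome 11, as do Stat5a and Stat5b.

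Mammary tumours can gain or lose chromosomes, so each member was set against the mean level of its own chromosome, computed without the gene and relative to all genes. Elf5 rose with chromosome 2 (r = 0.55, permutation p = 3e-05; rho 0.70, permutation p = 1e-05; limma adjusted p = 0.000131) and Stat5b with chromosome 11 (r = 0.40, permutation p = 0.00417; rho 0.29, permutation p = 0.0355; adjusted p = 0.0135). These were 2 of the 5 main probe sets, where 25.4% of all probe sets had a positive call, 20% on chromosome 2, 51.2% on chromosome 11 and 14.4% on chromosome 12. Foxa1 had r = -0.01, Stat5a 0.21 and Gata3 0.18 with theirs. The second Stat5a probe set was called, with r = 0.36 (limma adjusted p = 0.0265), and so were the second probe sets of Elf5 (0.53) and Stat5b (0.36). When the chromosome mean was not taken relative to all genes, Elf5 had r = 0.11 (adjusted p = 0.524) and Stat5b 0.15 (adjusted p = 0.378), and neither was called, while Foxa1 was (r = 0.32, adjusted p = 0.0336).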

How the data were processed

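RNA of 80 frozen tumours was measured on Affymetrix arrays, 1 per tumour. Per the submitters' processing notes, Affymetrix Expression Console and MAS5 were used, with versions not given. The authors deposited linear intensities, scaled so that each array's trimmed mean is about 500 (499.95 to 499.96). Probe sets were named from the platform annotation: 20380 of 22690 had 1 symbol, and 2246 besides 64 controls had none or several. Gene chromosomes came from RefSeq (20351 matched); promoter windows are RefSeq's (GRCm38.p6).

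Values were analysed as log2(intensity + 5) in R 4.3.3 (limma 3.58.1, statmod 1.5.0), using trend and robust eBayes and the label number as a random block (correlation 0.167). Genes were related over 53 means of label numbers. Permutations used numpy in Python. The fitting was tested on simulated data. Named were all members, the 3 most and 1 least alike genes of each main probe set, per pathway list the 2 genes with the smallest F test p and the 2 with the largest absolute r with Elf5 or Gata3, and in marker lists the brightest genes and those under the filter. Other list genes given as examples were chosen after their values were seen. Members and lists were chosen with earlier results of these data known. Whether tumours of different numbers are separate animals is not stated, so p-values measure the spread between these samples. The number of arrays limits the precision.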

Additional observations from a re-analysis of the deposited data

How the results depend on the processing

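Of 338 recomputed results, 320 kept their direction and side of the threshold. The count of member probe sets called between genotypes was 0 under every alternative (intensity offsets of 1 and 50, no filter, a stricter filter that drops Foxa1, quantile normalization, no block, 1 mean per label number, 1 probe set per gene, plain eBayes, without E2F1 null replicate 6). Directions reversed in 6 of the 338 results, not all of which ended at small values. Elf5 in E2F3 heterozygous minus wild type went from 0.025 to -0.014 with 1 mean per label number. Foxa1 with Stat5a went from r = -0.016 to 0.0093 over 80 tumours and to 0.026 within label numbers. Gata3 with Foxa1 went from 0.14 to -0.36 within label numbers. With uncentred chromosome scores, Foxa1 with chromosome 12 went from -0.015 to 0.32 and was called (limma adjusted p = 0.0336). Stat5a with chromosome 11 went from 0.21 to -0.0083 with those scores. Called member pairs went from 3 to 5 with 80 tumours as points and to 1 within label numbers, where 46 tumours enter; members called against their chromosome went from 2 to 1 with uncentred scores. The cause was not tested. The within-number fit and the list counts without the outlying array were chosen after seeing the data. No paired analysis was possible because the tumour numbers in the labels do not link tumours of different genotypes. Dim signal limits Esr1, Pgr, Greb1 and part of Foxa1.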

Other observations

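Elf5, a gene of chromosome 2, followed the mean level of chromosome 19 most closely of the 20 chromosomes. Over the 53 label numbers its r was 0.80 with chromosome 19, 0.49 with chromosome 13 and 0.47 with chromosome 7. It was -0.58 with chromosome 6 and -0.51 with chromosome 10, each taken relative to all genes. With its own chromosome 2, computed without Elf5, r was 0.55 as given above. Foxa1 had r = 0.52 with chromosome 15, where its 3 most alike genes lie, 0.49 with chromosome 6 and -0.49 with chromosome 13. These values were picked after all chromosomes were seen and carry no test.

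Greb1, though under the filter level, had r = 0.59 with the fibroblast score, 0.60 with the endothelial score and 0.53 with the macrophage and leukocyte score, while Esr1 had 0.12, -0.10 and -0.14 and Pgr -0.26, -0.20 and -0.22. The rho values of Greb1 were lower, at 0.45, 0.47 and 0.43. Its highest value, 76.5, came from E2F1 null replicate 6, the array that stood apart, which also had the highest fibroblast (3.11) and endothelial (1.99) scores of the 53 numbers. At such low signal these are descriptions of dim probe sets.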
